A study of Mus musculus with 11 samples.

Results

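The genes described here are 10 transcriptional readouts and feedback inhibitors of ERK signalling, measured by RNA sequencing in 11 libraries of mouse liver cancer cell lines. They are the Sprouty genes Spry1, Spry2 and Spry4, the Sprouty-related genes Spred1 and Spred2, the MAP kinase phosphatase genes Dusp4, Dusp5 and Dusp6, and the ETS factor genes Etv4 and Etv5. They were taken by name, as genes known to follow or restrain the pathway, by matching the Entrez gene IDs of the files to mouse symbols. All 10 were among the 36528 gene IDs listed, and all 10 were among the 18224 that passed the filter on low counts. The lines came from liver tumours of mice and are grouped by the mutant they carry: TAZ-S89A (5 libraries), YAP-5SA (3 libraries, spelled YAP-S5A in the sample labels) and YAP-S127A (3 libraries). TAZ (gene Wwtr1) and YAP (gene Yap1) are related coactivators of TEAD transcription factors, and in each mutant alanines replace serines through which the Hippo pathway kinases inhibit the protein. TAZ-S89A and YAP-S127A are changed at the single serine that their names give, and YAP-5SA at further serines as well. No line without such a mutant was analysed here, so no level below is relative to normal liver or to unmutated cells. The labels do not say which promoter or which cells carried the mutant in the mice, nor whether a group's libraries stand for different tumours, different lines or repeat cultures. A p-value here is thus set against library-to-library spread, possibly technical only, and the mutant cannot be told apart from the identity of a line.

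Growth factor receptors activate RAS, which starts the kinase cascade of RAF, MEK and ERK. Active ERK raises the transcription of its own inhibitors within hours, so that the mRNA of these genes is widely used as a readout of the pathway. Sprouty and Spred proteins act at the level of receptors, RAS and RAF, the Dusp proteins remove the activating phosphates from ERK, and Etv4 and Etv5 are transcription factors that carry part of the response. The repressor capicua (gene Cic) holds Etv4, Etv5 and several Dusp and Sprouty genes down at a short DNA octamer until ERK inactivates it. In the liver the pathway drives the proliferation of hepatocytes and is active in many tumours.

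The stretches just before the annotated transcription starts are shown because most of the genes were lower in TAZ-S89A and because capicua, ETS, AP-1 and TEAD factors are known to act on such stretches. Sequences are those of RefSeq for the GRCm38.p6 build, 250 bases each, 5′ to 3′ on the strand of the gene and ending at the base before the start. Entries matched 7 of the 10 genes (Spry1, Spry2, Spred1, Spred2, Dusp5, Dusp6 and Etv5), with 8 windows in all because Etv5 has 2 starts. Capitals mark matches, on either strand, to the capicua octamers TGAATGAA, TCAATGAA, TGAATGGA and TCAATGGA or to the TEAD core GGAATG. The windows are chr10:99262981-99263230 (+) for Dusp6, chr14:105896820-105897069 (-) for Spry2, chr3:37639697-37639946 (+) for Spry1 and chr2:117120821-117121070 (+) for Spred1. Dusp6 and Spry2 are the genes with an octamer, Spry1 has the TEAD core, and Spred1 has no match.
Dusp6: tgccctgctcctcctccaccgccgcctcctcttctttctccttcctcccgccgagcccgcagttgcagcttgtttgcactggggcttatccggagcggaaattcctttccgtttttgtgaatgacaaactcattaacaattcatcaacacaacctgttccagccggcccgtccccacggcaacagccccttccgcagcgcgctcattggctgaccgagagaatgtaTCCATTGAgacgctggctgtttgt
Spry2: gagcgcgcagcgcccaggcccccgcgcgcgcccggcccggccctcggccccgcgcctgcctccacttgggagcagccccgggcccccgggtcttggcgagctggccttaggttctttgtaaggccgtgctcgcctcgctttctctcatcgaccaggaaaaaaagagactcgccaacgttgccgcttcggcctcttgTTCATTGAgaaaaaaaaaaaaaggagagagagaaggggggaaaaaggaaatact
Spry1: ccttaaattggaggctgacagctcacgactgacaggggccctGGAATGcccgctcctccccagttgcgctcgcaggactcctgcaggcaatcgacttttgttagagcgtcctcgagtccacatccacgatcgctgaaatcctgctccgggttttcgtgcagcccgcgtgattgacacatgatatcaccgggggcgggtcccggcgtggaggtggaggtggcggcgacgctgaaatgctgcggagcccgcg
Spred1: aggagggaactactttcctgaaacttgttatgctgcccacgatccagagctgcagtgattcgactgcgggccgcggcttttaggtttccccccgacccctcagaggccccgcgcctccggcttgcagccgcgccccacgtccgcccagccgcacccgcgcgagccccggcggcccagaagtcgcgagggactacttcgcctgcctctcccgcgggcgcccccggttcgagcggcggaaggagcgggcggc
The Dusp6 match begins 24 bases before the start and the Spry2 match 54 bases before it. A capicua octamer was in 2 of the 8 windows of the feedback genes, and in 3.19% of 32851 windows of the same length over all annotated genes. The TEAD core was in 1 of the 8 windows (Spry1, 208 bases before the start) and in 12.6% of all windows. The ETS core CCGGAA and the AP-1 motif TGANTCA, each searched on both strands, were in 0 of the 8 windows and in 12.0% and 6.75% of all windows. None of these motifs overlapped another in the 8 windows. The matches describe the letters of these windows only, and binding was not measured.

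Total counts ran from 20071144 to 49159713 per library. TAZ-S89A replicates 4 and 5 have sample IDs of a second number series and the lowest totals (20246736 and 20071144), and the other 9 libraries are of the first series. On log2 CPM, counts scaled to the library total after its TMM correction, libraries correlated at 0.977 to 0.996 within TAZ-S89A and at 0.851 to 0.873 between groups (Pearson, across genes, which are not independent replicates). TAZ-S89A replicates 4 and 5 differed from each other by more than counting error (chi-square per degree of freedom 1.95, where 1 is counting error alone) and were kept as separate libraries. By this measure they were still the most alike pair within any group, as the other pairs ran from 5.61 to 205. By correlation they were not, at 0.993 beside 0.996 for TAZ-S89A replicates 1 and 2. Between replicates 4 or 5 and TAZ-S89A replicates 1 to 3 the chi-square value ran from 122 to 205. Within the first series it reached 110 and 99.5 for TAZ-S89A replicate 3 against replicates 1 and 2, and 134 for YAP-5SA replicates 2 and 3. Although the tissue label is liver, the 8 hepatocyte markers looked up, such as Alb and Ttr, summed to 0.734 to 1.22 CPM in TAZ-S89A, 6.77 to 7.89 CPM in YAP-5SA and 8.83 to 10.1 CPM in YAP-S127A. Epithelial markers (7 genes, such as Epcam and Krt8) summed to 352 to 618 CPM in TAZ-S89A, 5549 to 8242 CPM in YAP-5SA and 356 to 438 CPM in YAP-S127A. Single markers differed more than the like sums of TAZ-S89A and YAP-S127A show. Krt7, Cdh1, Krt19 and Krt8 were lower in TAZ-S89A than in YAP-S127A (log2 fold changes -6.17, -4.88, -2.93 and -2.25). Krt18 was higher (1.35), and Sox9 differed little (-0.10). Mesenchymal markers (8 genes, such as Vim and Col1a1) summed to 3625 to 4747 CPM in TAZ-S89A, 4524 to 4838 CPM in YAP-5SA and 8959 to 9508 CPM in YAP-S127A. The like sums of TAZ-S89A and YAP-5SA hide opposite differences of single markers. Pdgfrb, Col1a2, Acta2 and Col3a1 were higher in TAZ-S89A than in YAP-5SA (log2 fold changes 7.90, 7.10, 4.26 and 0.81). Vim (-1.39) and Col1a1 (-3.38) were lower. Leukocyte markers (7 genes) summed to between 23.6 and 97.5 CPM, highest in YAP-5SA, and endothelial markers (6 genes) to at most 2.25 CPM. The part of these differences in the results below was not tested. In bulk RNA, fewer cells with a transcript and less of it per cell cannot be told apart.

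The feedback genes were lower in TAZ-S89A lines than in either YAP group, apart from the Spred genes, of which Spred2 was called against YAP-5SA alone. Against YAP-S127A, edgeR's quasi-likelihood test (Benjamini-Hochberg adjusted p under 0.05) called 8 of the 10 lower and 0 higher, where 30.6% of all tested genes were called lower and 27.0% higher. Against YAP-5SA, 9 of the 10 were called lower and 0 higher, where 31.0% of all tested genes were called lower and 26.9% higher. These comparisons share the TAZ-S89A libraries and are not independent of each other. The median log2 fold change over the 10 genes was -2.22 for YAP-S127A as the comparator, beside -0.03 over all tested genes, and -1.82 for YAP-5SA, beside -0.04. In 8 of the 10, all but Spred1 and Spred2, every TAZ-S89A library lay below every library of both YAP groups. The share of all tested genes that separate in this way is not given here. Of the lists described below, 5 of 14 other ERK-induced genes, 2 of 10 relatives and 5 of 21 cascade genes did so. So did 2 of 11 brakes and 5 of 12 receptors. Wholly above both YAP groups lay 2 receptors and 1 gene each of the relatives, ERK-induced genes, cascade genes and brakes. Against the mean of both YAP groups, 8 of the 10 were called lower and 0 higher, where 30.5% of all tested genes were called lower and 28.2% higher. Against YAP-S127A the called changes ran between 2.13-fold for Dusp5 and 127.2-fold for Spry4.

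**Figure D1:**
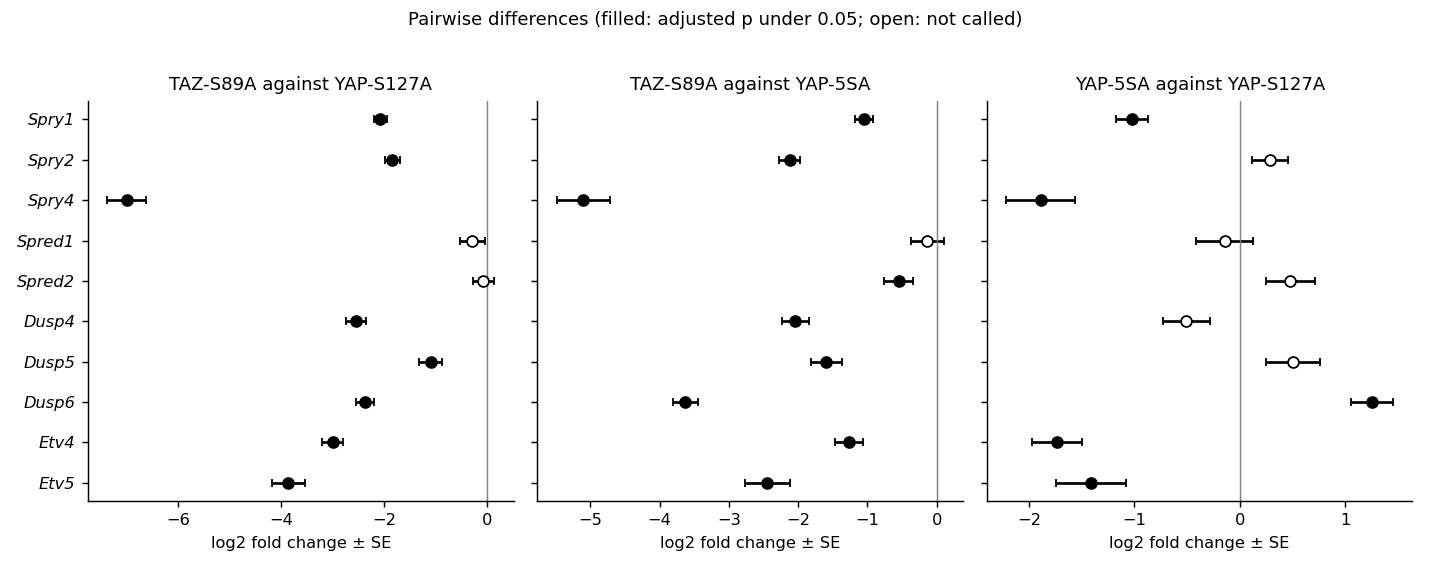
Pairwise log2 fold changes of the 10 feedback genes with standard errors, 1 panel per comparison; filled points were called at adjusted p under 0.05 and open points were not. In both TAZ-S89A panels Spry4 lies farthest to the left and the Spred genes nearest to 0, and in the panel of YAP-5SA against YAP-S127A the genes lie on both sides of 0.

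Spry1 and Spry2, which block the activation of RAS below growth factor receptors, fell in TAZ-S89A but stood in a different order in the YAP groups. Spry1 (chromosome 3) had 14.3, 14.7, 15.4, 17.9 and 19.5 CPM in TAZ-S89A, 36.7, 28.1 and 36.5 CPM in YAP-5SA and 70.3, 68.7 and 66.8 CPM in YAP-S127A. The 3 groups did not overlap, and YAP-5SA stood between the others. The log2 fold change of TAZ-S89A was -2.07 ± 0.13 (SE) against YAP-S127A (edgeR adjusted p = 1.2e-08) and -1.05 ± 0.13 against YAP-5SA (edgeR adjusted p = 1.2e-05). Spry2 (chromosome 14) had 12.1, 13.2, 13.4, 18.6 and 18.8 CPM in TAZ-S89A, 67.8, 62.6 and 67.9 CPM in YAP-5SA and 54.2, 54.6 and 53.8 CPM in YAP-S127A. Here both YAP groups were close to each other and far above the TAZ-S89A lines. The log2 fold change of TAZ-S89A was -1.84 ± 0.15 against YAP-S127A (edgeR adjusted p = 1.5e-07) and -2.12 ± 0.15 against YAP-5SA (edgeR adjusted p = 2.7e-08). Over the 562 tested genes of chromosome 14 TAZ-S89A had a median log2 fold change of -0.53 against YAP-S127A and -0.76 against YAP-5SA, so that the genes of that chromosome stood lower as a whole. For the chromosomes of the other 9 genes these medians lay between -0.13 and 0.35. The part of the chromosome's level in the Spry2 difference was not tested.

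Spry4 (chromosome 18), a related inhibitor, was nearly silent in TAZ-S89A. Its raw counts were 9, 1, 3, 12 and 11 in TAZ-S89A, 271, 339 and 314 in YAP-5SA and 1377, 899 and 893 in YAP-S127A. These counts equal 0.0223 to 0.489 CPM in TAZ-S89A, 7.24 to 8.10 CPM in YAP-5SA and 24.8 to 30.7 CPM in YAP-S127A, with wide gaps between the groups. The log2 fold change of TAZ-S89A was -6.99 ± 0.38 against YAP-S127A (127.2-fold lower, edgeR adjusted p = 2.1e-09). Against YAP-5SA it was -5.10 ± 0.38 (34.4-fold lower, edgeR adjusted p = 5.7e-08). The size is less certain than the direction, because few reads stand behind the TAZ-S89A values. With TAZ-S89A replicates 4 and 5 left out it was -8.03 against YAP-S127A, and with only those replicates kept it was -5.79. Against YAP-5SA the same fits gave -6.10 and -3.92.

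**Figure D2:**
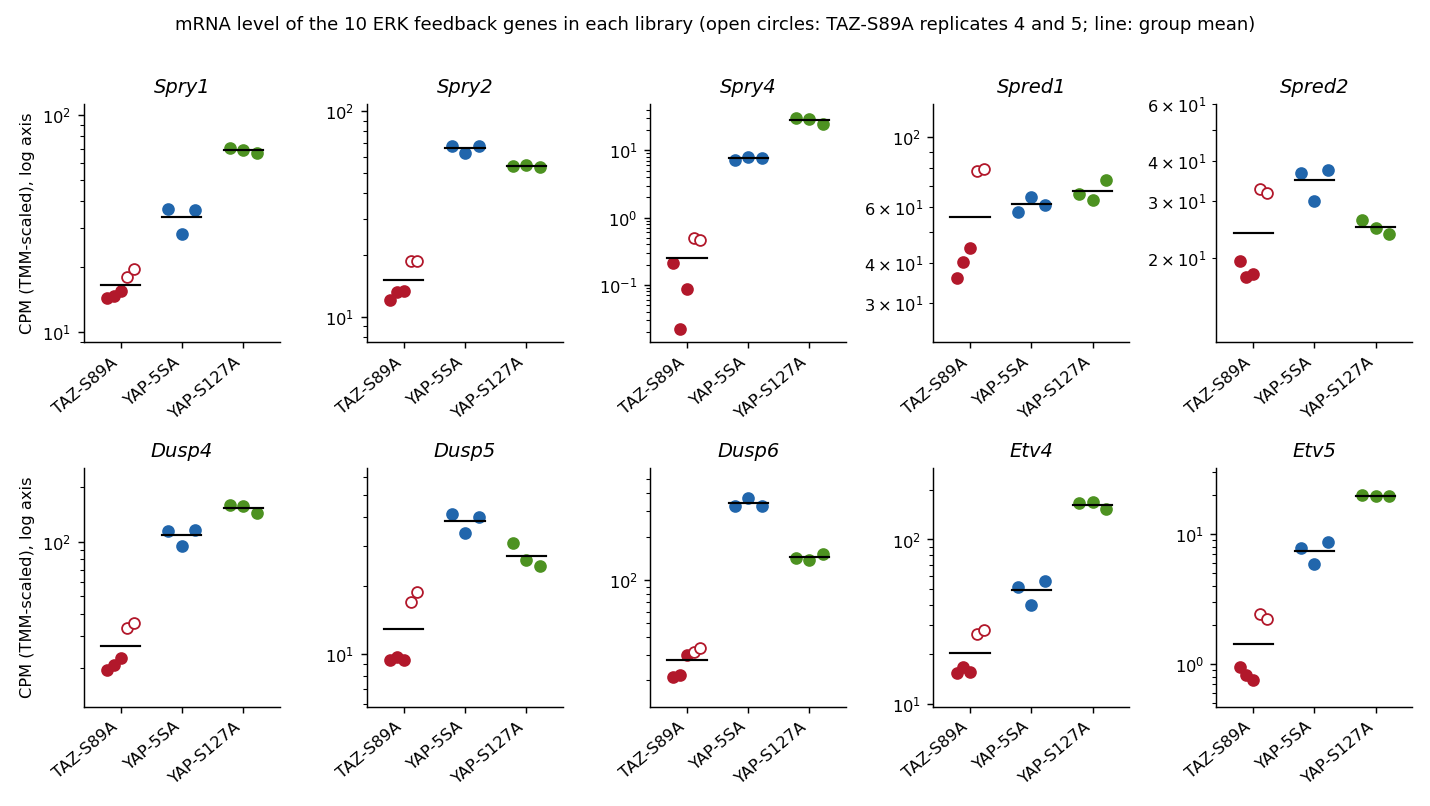
CPM of each feedback gene in every library on log axes, 1 panel per gene, with TAZ-S89A, YAP-5SA and YAP-S127A from left to right; lines are group means and open circles are TAZ-S89A replicates 4 and 5. The TAZ-S89A points lie below all YAP points for every gene except Spred1 and Spred2.

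The Spred genes, whose proteins bind neurofibromin and keep RAS inactive, did not follow the Sprouty genes. Spred1 (chromosome 2) had 36.1, 40.4, 44.8, 78.2 and 79.5 CPM in TAZ-S89A, 57.9, 64.7 and 61.2 CPM in YAP-5SA and 66.2, 63.4 and 73.4 CPM in YAP-S127A. TAZ-S89A replicates 1 to 3 lay below, and replicates 4 and 5 above, every YAP library. The group means were 55.8 ± 21.3 CPM in TAZ-S89A (SD, n = 5), 61.3 ± 3.42 CPM in YAP-5SA and 67.7 ± 5.18 CPM in YAP-S127A (SD, n = 3 each). The log2 fold changes of TAZ-S89A, -0.28 ± 0.24 against YAP-S127A (edgeR adjusted p = 0.33) and -0.14 ± 0.24 against YAP-5SA (edgeR adjusted p = 0.65), were not called. Spred2 (chromosome 11) had 19.6, 17.5, 17.8, 32.7 and 31.8 CPM in TAZ-S89A, 36.6, 30.1 and 37.6 CPM in YAP-5SA and 26.2, 24.8 and 23.7 CPM in YAP-S127A. Its TAZ-S89A libraries split in the same way and spanned the YAP-S127A values. The log2 fold change of TAZ-S89A was -0.07 ± 0.21 against YAP-S127A (edgeR adjusted p = 0.80) and -0.55 ± 0.21 against YAP-5SA (edgeR adjusted p = 0.036). That call against YAP-5SA was lost in 11 of 21 alternatives, among them without TAZ-S89A replicate 1, 2 or 3 (adjusted p = 0.078, 0.078 and 0.11) and without YAP-5SA replicate 1 or 3 (adjusted p = 0.10 and 0.11). With every library kept it was lost under DESeq2 (adjusted p = 0.061) and with RLE or upper-quartile scaling (edgeR adjusted p = 0.057 and 0.079). The strict low-count filter and the fit to only the groups compared lost it too (edgeR adjusted p = 0.065 and 0.099). Over the 21 alternatives its adjusted p ran between 6.4e-06 and 0.85. Against the mean of both YAP groups Spred2 was at -0.31 ± 0.18 (edgeR adjusted p = 0.15) and was called without TAZ-S89A replicate 4 (adjusted p = 0.048, with a range of 3.8e-05 to 0.45 over 20 alternatives).

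Dusp6, the cytoplasmic phosphatase that acts most selectively on ERK, had the lowest adjusted p of the 10 genes in TAZ-S89A against YAP-5SA. It had 21.0, 21.96, 30.1, 31.7 and 33.8 CPM in TAZ-S89A, 327, 374 and 328 CPM in YAP-5SA and 143, 137 and 151 CPM in YAP-S127A. The groups did not overlap, and YAP-5SA was the highest. The log2 fold change of TAZ-S89A was -3.63 ± 0.18 against YAP-5SA (12.4-fold lower, edgeR adjusted p = 6.0e-10) and -2.37 ± 0.17 against YAP-S127A (5.19-fold lower, edgeR adjusted p = 4.9e-08). Dusp6 (chromosome 10) overlaps the predicted gene Gm34921, and as the strand setting is not known their reads may not be separable. Counts of Gm34921 equalled at most 9.38% of those of Dusp6 in TAZ-S89A, 5.98% in YAP-5SA and 6.75% in YAP-S127A.

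Dusp4 and Dusp5 encode nuclear phosphatases of the same family, and both fell in TAZ-S89A. Dusp4 (chromosome 8) had 19.6, 20.6, 22.6, 33.4 and 35.7 CPM in TAZ-S89A, 114, 94.9 and 115 CPM in YAP-5SA and 159, 157 and 144 CPM in YAP-S127A. It was thus highest in YAP-S127A, where Dusp6 was not. Its log2 fold change was -2.54 ± 0.20 against YAP-S127A (edgeR adjusted p = 8.2e-08) and -2.04 ± 0.19 against YAP-5SA (edgeR adjusted p = 6.6e-07). Dusp5 (chromosome 19) had 9.37, 9.72, 9.40, 16.9 and 18.7 CPM in TAZ-S89A, 41.2, 34.2 and 40.1 CPM in YAP-5SA and 30.8, 26.0 and 24.5 CPM in YAP-S127A. The highest TAZ-S89A library stood closer to the lowest YAP-S127A library here than in Dusp4 or Dusp6, without overlap. Its log2 fold change was -1.09 ± 0.22 against YAP-S127A (edgeR adjusted p = 0.00094) and -1.60 ± 0.22 against YAP-5SA (edgeR adjusted p = 3.1e-05).

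Etv4 and Etv5, the ETS factors of the PEA3 group, ordered the groups in the same way as Spry1 and Spry4, with TAZ-S89A lowest, YAP-5SA between and YAP-S127A highest. Etv4 (chromosome 11) had 15.4, 16.7, 15.7, 26.6 and 28.0 CPM in TAZ-S89A, 51.7, 40.04 and 55.6 CPM in YAP-5SA and 166, 169.6 and 153 CPM in YAP-S127A. Its log2 fold change in TAZ-S89A was -3.00 ± 0.21 against YAP-S127A (edgeR adjusted p = 3.0e-08) and -1.27 ± 0.21 against YAP-5SA (edgeR adjusted p = 0.00012). Etv5 (chromosome 16) had 0.944, 0.825, 0.754, 2.45 and 2.21 CPM in TAZ-S89A, 7.83, 5.90 and 8.64 CPM in YAP-5SA and 20.2, 19.5 and 19.8 CPM in YAP-S127A. The TAZ-S89A values rest on 26 to 60 counts per library. Its log2 fold change was -3.86 ± 0.32 against YAP-S127A (edgeR adjusted p = 1.8e-07) and -2.44 ± 0.32 against YAP-5SA (edgeR adjusted p = 1.6e-05). Every TAZ-S89A library lay below every YAP library for both genes.

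The YAP groups differed from each other in both directions. In YAP-5SA against YAP-S127A, 1 of the 10 genes was called higher (Dusp6) and 4 lower (Spry1, Spry4, Etv4 and Etv5), where 28.2% of all tested genes were called higher and 27.0% lower. Dusp6 was higher by 1.26 ± 0.20 on the log2 scale (edgeR adjusted p = 0.00011). Spry4 fell by 1.89 ± 0.33, Etv4 by 1.73 ± 0.24, Etv5 by 1.41 ± 0.33 and Spry1 by 1.02 ± 0.15 in YAP-5SA (edgeR adjusted p = 0.00023, 3.3e-05, 0.0027 and 6.0e-05). All called genes had groups that did not overlap. So did Spry2 (0.29 ± 0.17), Spred2 (0.48 ± 0.23), Dusp5 (0.51 ± 0.25) and Dusp4 (-0.51 ± 0.22), which were not called in the fit over all 11 libraries (edgeR adjusted p = 0.16, 0.098, 0.11 and 0.066). With only the 6 YAP libraries in the fit, these 4 genes were called as well (adjusted p = 0.032, 0.0051, 0.0063 and 0.0045), which gave 4 genes higher and 5 lower in YAP-5SA. Of all genes, 11524 of 17518 tested were called in either direction in that fit, and 10061 of 18224 in the fit over all 11 libraries. The fit to the YAP libraries leaves out the spread among the TAZ-S89A libraries, and it gave the lowest adjusted p of 18 alternatives for each of the 4, whose highest lay between 0.19 and 0.28. Spred1 had overlapping groups and a log2 fold change of -0.14 ± 0.27 (edgeR adjusted p = 0.67). The share of all tested genes without overlap between the YAP groups is not given here. Of 21 cascade genes described below, 11 lay wholly higher and 8 wholly lower in YAP-5SA. Of 14 other ERK-induced genes, 12 lay wholly higher and 1 wholly lower.

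Inside TAZ-S89A, all 10 genes were higher in each library of the second ID series (replicates 4 and 5) than in any of the first (replicates 1 to 3). The share of all tested genes that separate in this way is not given here. Of the lists described below, 13 of 14 other ERK-induced genes, 7 of 10 relatives and 9 of 21 cascade genes did so. So did 6 of 11 brakes and 6 of 12 receptors. Wholly lower in the second series were 1 relative, 2 cascade genes, 2 brakes and 1 receptor. The test called 8 of the 10 feedback genes higher and 0 lower in the second series against the first, where 10.9% of all tested genes were called higher and 14.7% lower. The median log2 fold change over the 10 genes was 0.80, and over all tested genes it was -0.08. Spry4 differed by 2.12 ± 0.52 (edgeR adjusted p = 0.0093), on 1 to 12 counts per library, and without TAZ-S89A replicate 4 this call was lost (adjusted p = 0.066, the highest of its 17 alternatives). Etv5 differed by 1.46 ± 0.22 (edgeR adjusted p = 0.00034) and Spred1 by 0.96 ± 0.12 (edgeR adjusted p = 9.7e-05). The other called genes, Dusp5, Spred2, Etv4, Dusp4 and Spry2, differed by between 0.54 and 0.91. Dusp6 (0.43 ± 0.16, edgeR adjusted p = 0.065) and Spry1 (0.34 ± 0.13, edgeR adjusted p = 0.074) were not called, though both were under DESeq2 (adjusted p = 0.0083 and 0.017), without TAZ-S89A replicate 3 (adjusted p = 0.0013 and 0.021) and without YAP-5SA replicate 2 (adjusted p = 0.043 and 0.019). Over 18 alternatives the adjusted p ran between 0.0013 and 0.19 for Dusp6 and between 0.017 and 0.17 for Spry1. The 2 series differ in total counts as well, and what else set them apart is not given in the sources used here. Counts of genes called over the whole table also rested on both libraries of the second series, with 4666 called in all, 2294 without replicate 4 and 2759 without replicate 5.

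The split changed what was found for the Spred genes. With the first series alone, all 10 genes were called lower than in YAP-S127A and all 10 lower than in YAP-5SA. Of the 18101 genes tested there, 10749 and 10971 were called in either direction. With the second series alone, 8 were called lower than in YAP-S127A, while Spred1 (0.32 ± 0.11, edgeR adjusted p = 0.021) and Spred2 (0.47 ± 0.12, edgeR adjusted p = 0.0041) were called higher. Against YAP-5SA the second series was lower in 8 genes, higher in Spred1 (0.44 ± 0.11, edgeR adjusted p = 0.0034) and not called for Spred2 (-0.03 ± 0.12, edgeR adjusted p = 0.85). With the second series 18441 genes were tested, of which 11841 were called against YAP-S127A and 11930 against YAP-5SA, in either direction. The sizes moved for the other genes too. Dusp5 was at -0.51 ± 0.13 against YAP-S127A with the second series and -1.53 ± 0.13 with the first. Etv5 was at -2.99 ± 0.18 with the second series and -4.57 ± 0.19 with the first, and Dusp4 at -2.06 ± 0.13 and -2.89 ± 0.14. Dusp6 moved less, with -2.03 ± 0.13 for the second series and -2.57 ± 0.17 for the first. The comparison with the second series alone was added after these values had been seen.

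**Figure D3:**
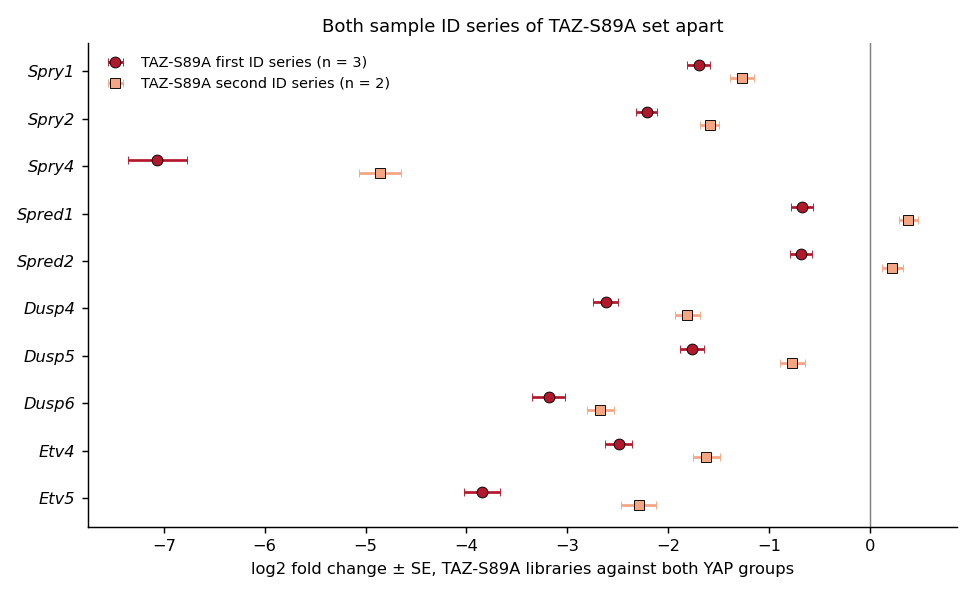
Log2 fold changes with standard errors of each feedback gene in TAZ-S89A libraries against the mean of both YAP groups, fitted with the 2 libraries of the second sample ID series and with the 3 of the first. The second series lies to the right of the first for every gene, and only for Spred1 and Spred2 does it reach or pass 0.

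Levels can be set against each other between genes only per length, and for this the authors' nRPKM, read counts per transcript length and library depth, were used. In TAZ-S89A the highest genes stood close together. Dusp5 averaged 9.21 ± 3.67, Dusp4 9.01 ± 2.95 and Dusp6 8.19 ± 1.98 nRPKM (SD, n = 5), and their spreads overlapped. In YAP-5SA Dusp6 led with 100.003 ± 7.67 nRPKM, followed by Dusp4 with 36.3 ± 3.95 and Dusp5 with 27.2 ± 2.73 nRPKM (SD, n = 3). In YAP-S127A Dusp4 (51.9 ± 3.38), Etv4 (49.9 ± 3.17) and Dusp6 (42.1 ± 1.65 nRPKM, SD, n = 3) led. Dusp4 stood above Etv4 in each YAP-S127A library (54.2 and 51.2, 53.5 and 52.2, 48.0 and 46.2 nRPKM), though their spreads between libraries overlapped. The lowest were Spry4 in TAZ-S89A and in YAP-5SA, with 0.0466 ± 0.0402 and 1.36 ± 0.0737 nRPKM, and Spred2 in YAP-S127A with 2.28 ± 0.137 nRPKM. The ratio of Dusp6 to Dusp4 was 0.932 ± 0.136 in TAZ-S89A (SD, n = 5), 2.79 ± 0.549 in YAP-5SA and 0.815 ± 0.0835 in YAP-S127A (SD, n = 3 each), and the YAP-5SA values lay above those of both other groups without overlap. Spry1 over Spry2 was 1.26 ± 0.105 in TAZ-S89A, 0.587 ± 0.0600 in YAP-5SA and 1.46 ± 0.0316 in YAP-S127A. Etv4 over Etv5 was 24.5 ± 6.70 in TAZ-S89A, 10.01 ± 0.267 in YAP-5SA and 12.5 ± 0.732 in YAP-S127A. These ratios are descriptions and were not tested.

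**Figure D4:**
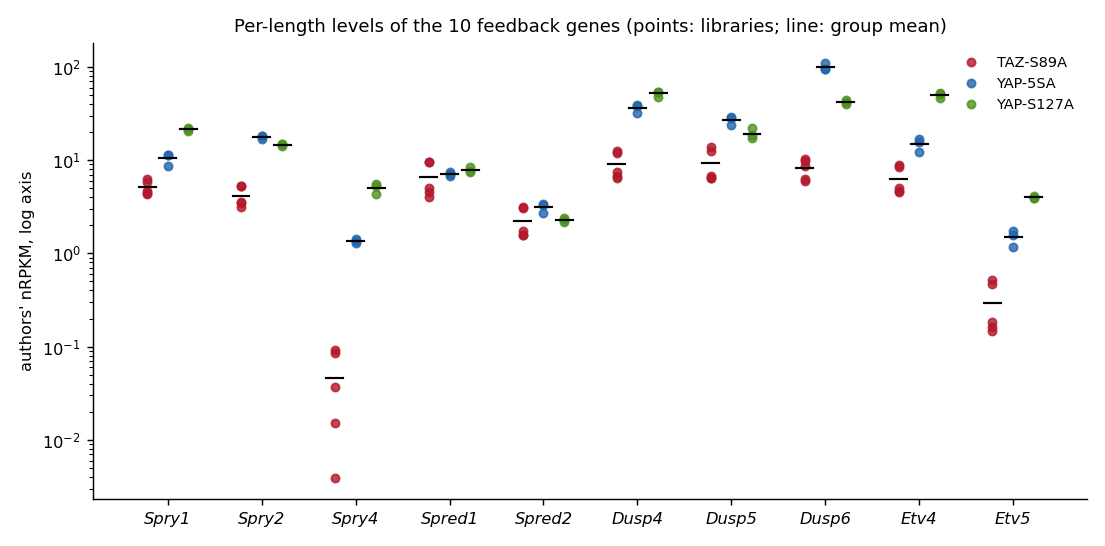
The authors' nRPKM of each feedback gene on a log axis, with TAZ-S89A, YAP-5SA and YAP-S127A from left to right within each gene; points are libraries and lines are group means. Dusp6 is the highest point of the plot in YAP-5SA at 100.003 nRPKM on average, and Spry4 in TAZ-S89A is the lowest at 0.0466.

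Of 10 close relatives of the feedback genes tested in TAZ-S89A against both YAP groups, 2 were called higher, 5 lower and 3 not called, with a median log2 fold change of -0.59. In this comparison 28.2% of all tested genes were called higher and 30.5% lower. Against YAP-S127A 2 relatives were higher and 5 lower, and against YAP-5SA 2 were higher and 6 lower. Spred3 averaged 18.9 ± 2.91 CPM in TAZ-S89A (SD, n = 5), 51.9 ± 10.5 CPM in YAP-5SA and 43.3 ± 3.56 CPM in YAP-S127A (SD, n = 3 each), a log2 fold change of -1.33 ± 0.14 (edgeR adjusted p = 1.7e-06). Dusp7, a cytoplasmic relative of Dusp6, was lower by the same test (-1.21 ± 0.13). Dusp10, which acts mainly on JNK and p38 kinases, averaged 12.9 ± 0.923 CPM in TAZ-S89A, 55.02 ± 1.64 CPM in YAP-5SA and 12.6 ± 0.141 CPM in YAP-S127A, with log2 fold changes of TAZ-S89A of -2.09 ± 0.10 against YAP-5SA and 0.04 ± 0.11 against YAP-S127A. Spry3 was called higher in TAZ-S89A (1.87 ± 0.45) at a mean of 0.789 CPM, a level far under that of Spry1 and Spry2.

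Of 14 other genes known to be induced by ERK signalling, 2 were called higher in TAZ-S89A against both YAP groups, 10 lower and 2 not called, with a median log2 fold change of -0.89, where 28.2% of all tested genes were called higher and 30.5% lower. The comparisons with each YAP group differed in their counts. Against YAP-5SA 2 were higher, 10 lower and 2 not called (median -1.25), and against YAP-S127A 2 were higher, 4 lower and 8 not called (median -0.26). Phlda1, Epha4 and Epha2 were among those not called against YAP-S127A (edgeR adjusted p = 0.052, 0.090 and 0.79). Ccnd1, the cyclin D1 gene, averaged 199 ± 72.1 CPM in TAZ-S89A (SD, n = 5), 2015 ± 133 CPM in YAP-5SA and 503 ± 28.4 CPM in YAP-S127A (SD, n = 3 each), a log2 fold change of -2.34 ± 0.24 (edgeR adjusted p = 1.5e-06). Phlda1 averaged 37.2 ± 9.97 CPM in TAZ-S89A, 289 ± 23.9 CPM in YAP-5SA and 51.4 ± 3.14 CPM in YAP-S127A (-1.71 ± 0.17). The ephrin receptor gene Epha4 averaged 45.1 ± 4.08 CPM in TAZ-S89A, 179 ± 22.5 CPM in YAP-5SA and 54.3 ± 2.41 CPM in YAP-S127A (-1.13 ± 0.11). Epha2, of the same family, averaged 226 ± 28.2 CPM in TAZ-S89A, 401 ± 63.2 CPM in YAP-5SA and 235 ± 10.7 CPM in YAP-S127A (-0.44 ± 0.14). Ccnd1, Phlda1, Epha2 and Epha4 form, with several of the feedback genes, a published transcript score of ERK output. These 4 genes had their highest mean in YAP-5SA, as did Spry2, Spred2, Dusp5 and Dusp6 of the feedback genes. Spry1, Spry4, Spred1, Dusp4, Etv4 and Etv5 had theirs in YAP-S127A. Il17rd, which encodes the feedback inhibitor Sef, went the other way. It averaged 36.4 ± 14.9 CPM in TAZ-S89A, 1.48 ± 0.610 CPM in YAP-5SA and 1.68 ± 0.556 CPM in YAP-S127A, a log2 fold change of 4.53 ± 0.30 (edgeR adjusted p = 1.7e-08). Egr1, an immediate early transcription factor, averaged 74.6 ± 13.9 CPM in TAZ-S89A, 7.45 ± 1.88 CPM in YAP-5SA and 58.2 ± 2.51 CPM in YAP-S127A (1.84 ± 0.15). Egr1 was called higher against YAP-5SA (3.32 ± 0.21) but not against YAP-S127A (0.36 ± 0.18, edgeR adjusted p = 0.0996).

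Of 21 genes of RAS, RAF, MEK, ERK and their adaptors, 5 were called higher in TAZ-S89A against both YAP groups, 6 lower and 10 not called, with a median log2 fold change of -0.04. These counts are near the shares over all tested genes, 28.2% higher and 30.5% lower. The RAS-family genes Mras (-2.05 ± 0.16), Hras (-1.50 ± 0.15) and Rras2 (-1.46 ± 0.18) were lower, and Sos1, an exchange factor of RAS, was higher (0.88 ± 0.14). Sos1 was called against YAP-5SA (1.48 ± 0.18) but not against YAP-S127A (0.28 ± 0.17, edgeR adjusted p = 0.17). Of 11 brakes on the cascade outside the feedback genes, 2 were higher, 6 lower and 3 not called, beside the same shares. Against YAP-S127A 2 brakes were higher and 7 lower (median -0.61), and against YAP-5SA 3 were higher and 2 lower (median 0.24). Cic, the capicua gene, averaged 184 ± 20.9 CPM in TAZ-S89A (SD, n = 5), 157 ± 37.7 CPM in YAP-5SA and 697 ± 56.0 CPM in YAP-S127A (SD, n = 3 each), with log2 fold changes of TAZ-S89A of -1.92 ± 0.19 against YAP-S127A (edgeR adjusted p = 1.0e-06) and 0.23 ± 0.19 against YAP-5SA (edgeR adjusted p = 0.33). The RAS GTPase-activating genes Rasa2 (-1.04 ± 0.10) and Rasal2 (-0.82 ± 0.10) were lower, and Pebp1, an inhibitor of RAF, was higher (0.77 ± 0.26, edgeR adjusted p = 0.022). Pebp1 was called against YAP-S127A (0.87 ± 0.33, edgeR adjusted p = 0.034) but not against YAP-5SA (0.66 ± 0.32, edgeR adjusted p = 0.095).

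Of 13 receptor tyrosine kinase genes listed, 12 were tested (Kit did not pass the filter), and 3 were called higher in TAZ-S89A against both YAP groups, 7 lower and 2 not called, where 28.2% of all tested genes were called higher and 30.5% lower. Egfr, the epidermal growth factor receptor, averaged 37.2 ± 4.92 CPM in TAZ-S89A (SD, n = 5), 266 ± 25.7 CPM in YAP-5SA and 85.5 ± 2.39 CPM in YAP-S127A (SD, n = 3 each), a log2 fold change of -2.02 ± 0.12 (edgeR adjusted p = 6.8e-09). Its groups stood in the same order as those of Dusp6. Pdgfra was near 0 in TAZ-S89A (0.146 ± 0.0569 CPM), at 1.22 ± 0.137 CPM in YAP-5SA and at 102 ± 4.599 CPM in YAP-S127A. Pdgfrb, also a mesenchymal marker, averaged 268 ± 37.2 CPM in TAZ-S89A, 1.12 ± 0.112 CPM in YAP-5SA and 474 ± 31.3 CPM in YAP-S127A. Erbb3 was at or under 1.02 CPM in every library and was called lower in TAZ-S89A (-2.06 ± 0.33). Within TAZ-S89A, the second ID series was called higher than the first for 9 of 14 other ERK-induced genes, 3 of 10 relatives, 5 of 21 cascade genes, 2 of 11 brakes and 1 of 12 receptors, and lower for 1 brake. Over all tested genes 10.9% were called higher and 14.7% lower there, so the counts of brakes and receptors are near that share.

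**Figure D5:**
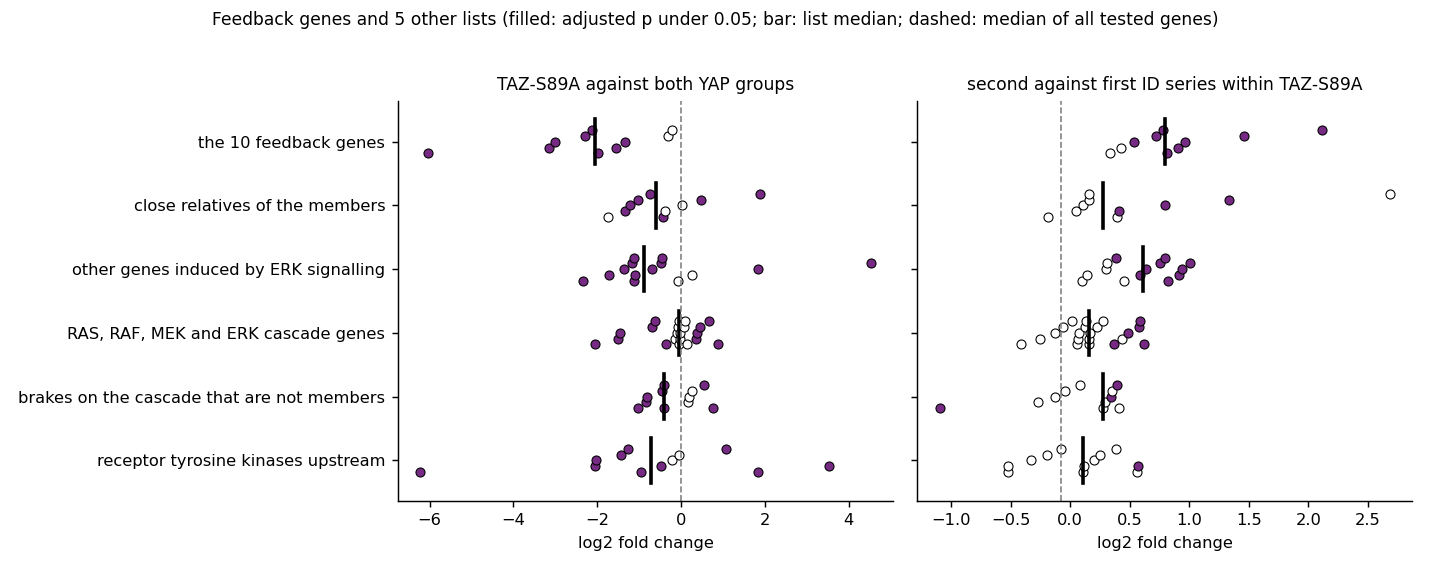
Log2 fold changes of the 10 feedback genes and of 5 other lists of the pathway, 1 panel per comparison; filled points were called at adjusted p under 0.05, bars are list medians and the dashed line is the median of all tested genes. In TAZ-S89A against both YAP groups the median of the feedback genes lies farther below the dashed line than that of any other list shown, while the cascade genes lie around it.

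The genes whose pattern over the 11 libraries was most like that of Dusp6 were found by the root mean square difference of centred log2 CPM over all tested genes. They were Dlx1 (0.206), Gdf15 (0.213), Jazf1 (0.228), Vsig1 (0.237) and Samd5 (0.258). Gdf15, a secreted stress cytokine, averaged 3.58 ± 1.10 CPM in TAZ-S89A (SD, n = 5), 41.5 ± 5.12 CPM in YAP-5SA and 20.5 ± 2.26 CPM in YAP-S127A (SD, n = 3 each). Among the other feedback genes Spry2 was nearest (0.638), followed by Dusp4 (0.759) and Dusp5 (0.890), and Spry4 was farthest (1.96).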

How the data were processed

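PolyA RNA of the lines was sequenced, and each library was put in the group that its label names, with replicates numbered in order of deposition. The deposited tables hold counts, which per the file headers are reads aligning uniquely to each Entrez gene, and nRPKM, an RPKM that the authors divided by library size factors. Per the submitters' processing notes, GSNAP aligned the reads to GRCm38. Its version, the counting tool and the strandedness used were not given in the sources used here. Symbols and coordinates came from the RefSeq annotation of GRCm38.p6, which matched 31049 of 36528 IDs. The 5479 IDs without a symbol held 2.91% of counts and stayed in the totals.

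Counts were tested with edgeR 4.0.16 in R 4.3.3. The low-count filter filterByExpr kept 18224 genes and removed 18304, and libraries were scaled by TMM, on which scale CPM are given. A robust quasi-likelihood model was fitted to all 11 libraries with the group as its term, or with TAZ-S89A split by ID series for the comparison within it. A call means an adjusted p (Benjamini-Hochberg, over all tested genes) under 0.05. Counts per library ran from 20071144 to 49159713, so that a gene with few counts, such as Spry4 in TAZ-S89A, has an uncertain fold change. The nRPKM were used only to set genes beside each other per length. Alternatives were RLE and upper-quartile scaling, DESeq2 1.42.0, limma-voom (limma 3.58.1), no filter and a strict one, only the groups compared, the ID series as a covariate or left out, a log2 fold change of at least 1, and each library left out in turn. The fit was tested on simulated counts.

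The genes named are all 10 feedback genes, from each pathway list up to 4 called genes whose change was largest in TAZ-S89A against both YAP groups, Phlda1, Ccnd1, Epha2 and Epha4, and the 5 tested genes most like Dusp6. The members and lists were chosen with earlier results of these data known. Kit, Gm34921 and the markers Alb, Ttr, Epcam, Cdh1, Krt7, Krt8, Krt18, Krt19, Sox9, Vim, Col1a1, Col1a2, Col3a1 and Acta2 are named outside that rule.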

Additional observations from a re-analysis of the deposited data

How the results depend on the processing

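Over 210 combinations of a gene and an alternative in TAZ-S89A against YAP-S127A, the log2 fold changes of the 10 genes kept direction and side of the threshold in 202, and in TAZ-S89A against YAP-5SA in 196 of 210. The exceptions concerned Spred1 and Spred2. With the ID series as a covariate, both were called lower against YAP-S127A (Spred1 -0.74, edgeR adjusted p = 5.6e-05, and Spred2 -0.45, edgeR adjusted p = 0.0030). Then 10 of 10 genes were lower against YAP-S127A, YAP-5SA and both, as without the second series. The second series holds TAZ-S89A libraries only. Both alternatives thus compare TAZ-S89A replicates 1 to 3 with the YAP groups, and their likeness follows from the design. With the covariate 11250, 11434 and 11185 of 18224 tested genes were called in these 3 comparisons, in either direction. With the second ID series alone, an alternative added after seeing the data, Spred1 reversed to 0.32 against YAP-S127A, 0.44 against YAP-5SA and 0.38 against both YAP groups, and Spred2 to 0.47 against YAP-S127A and 0.22 against both. There 2 genes were called higher against YAP-S127A, 1 against YAP-5SA and 1 against both. Spred2 against YAP-S127A also reversed, uncalled, to 0.030 and 0.082 without TAZ-S89A replicate 2 or 3, and with single libraries left out it ran between -0.17 and 0.082. A further threshold of 1 on the absolute log2 fold change left 5873 of 10505 genes called in TAZ-S89A against YAP-S127A, 6164 of 10545 in TAZ-S89A against YAP-5SA, 5122 of 10699 in TAZ-S89A against both and 6269 of 10061 in YAP-5SA against YAP-S127A, since that rule only removes calls. Within TAZ-S89A it left 1575 of 4666 genes and 2 of the 8 feedback genes, and leaving out single libraries gave 2294 to 5562 genes called. With only the YAP libraries in the fit, 4 feedback genes were called higher in YAP-5SA instead of 1, and 11524 of 17518 tested genes were called in all. The strict filter moved the median of all tested genes by 0.101 on the log2 scale within TAZ-S89A, and the other alternatives moved it by less in every comparison. No paired analysis was possible because the labels give no replicate numbers. Few counts stand behind Spry4 and Etv5 in TAZ-S89A, and the calls of Spred1 and Spred2 change with the choice of ID series. The Spred2 call against YAP-5SA was also lost under DESeq2, RLE or upper-quartile scaling and the strict filter.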
